A study of Mus musculus with 2 samples.

Results

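The genes described here serve the uptake of apoptotic cells and were chosen by name, as the rows of the deposited count table that map to the mouse symbols Mertk, Axl and Tyro3 (the TAM receptors), Gas6 and Pros1 (their ligands), Mfge8 and Itgb5 (an integrin bridge), Timd4, Elmo1 and Dock1. All 10 symbols were found among the 22060 genes of the table. Read counts from RNA-seq were available for 1 wild-type (WT) library and 1 library of cells whose STAT2 carries the T403A substitution, both of macrophages grown from the bone marrow of C57BL/6 mice. Marrow cells from animals 8 weeks old were kept in M-CSF, the macrophage growth factor, for 7 days and then left without a stimulus, and both libraries are labelled 0 h. STAT2 is the transcription factor subunit best known for its activation by type I interferon. The labels do not say how the substitution was made, how many animals gave marrow or whether cells were pooled.

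Clearance of dying cells, called efferocytosis, starts when a phagocyte recognises phosphatidylserine on the dying cell. Some receptors bind this lipid directly, as TIM-4 (from Timd4) does, whereas TAM receptors and integrins bind it through soluble bridging proteins. GAS6 and protein S (from Pros1) bridge to the TAM receptor tyrosine kinases, and MFG-E8 bridges to integrins that contain the αv chain. Uptake then runs through ELMO1 and DOCK1, which together activate the small GTPase Rac and so remodel the actin skeleton. In macrophages MERTK is the TAM receptor best known for uptake, and AXL is known as a receptor induced by interferon and inflammatory stimuli.

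The WT library held 16033032 counts and the T403A library 18658381. Counts were scaled with the TMM method, which sets library totals so that most genes do not differ, and are given as CPM, each count relative to its scaled library total. Each group is 1 library, so differences have no replicate check or p-value and describe these libraries rather than the genotypes. Intervals are exact 95% intervals and cover counting error only. A gene was called higher or lower in T403A when its fold was at least 1.5 and the interval of the ratio excluded 1, provided that its counts in the libraries summed to 20 or more, which held for 11199 genes. Stat2 itself stood at 376 and 84.4 CPM (WT, then T403A, here and wherever a pair of values is given), and a substitution need not change a gene's count, so this does not check the labels. In bulk RNA, fewer cells of a type and less RNA per cell cannot be told apart.

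The ligand gene Gas6 was higher and the receptor gene Axl lower in the T403A library, and these were the only members past 2-fold among the 8 with enough counts to be measured. Gas6 differed by 5.32-fold and Axl by 3.58-fold. Pros1 and Dock1 were higher by 1.93-fold and 1.64-fold. Mertk, Itgb5, Mfge8 and Elmo1 differed beyond counting error but by less than 1.5-fold and were not called, and Tyro3 and Timd4 had too few counts to be measured. So 3 of 8 measured members were called higher and 1 lower. Over all measured genes the background was 13.5% called higher and 10.8% called lower, or 24.4% in either direction. At 2-fold 1 member was higher and 1 lower, where the background was 7.21% higher and 6.08% lower, or 13.3% in either direction.

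**Figure D1:**
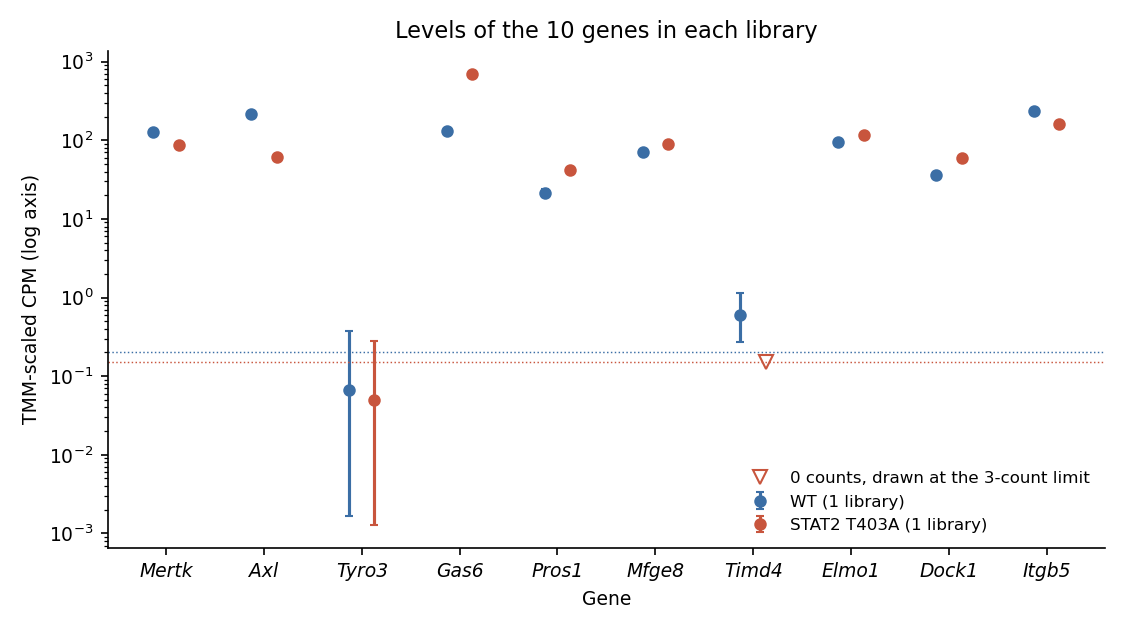
TMM-scaled CPM (log axis) of the 10 genes in the WT library (blue) and the STAT2 T403A library (red), with exact 95% Poisson intervals as bars and the level of 3 counts in each library as dotted lines. Gas6 stood at 131 and 698 CPM, Axl at 219 and 61.2 CPM, and Tyro3 lay below the dotted lines in both libraries.

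Of the TAM receptors, Axl was the one that differed most. Axl (ENSMUSG00000002602) lies on chromosome 7 at 25757273 to 25788705 on the minus strand of GRCm38 and encodes a receptor that binds GAS6. It had 3286 counts in WT and 1220 in T403A. Scaled levels were 219 CPM in WT (interval 212 to 227) and 61.2 CPM in T403A (57.8 to 64.7), so the intervals lay far apart. The level was 3.58-fold lower in T403A (3.35 to 3.83). Of the 1506 measured genes at least as abundant as Axl by mean CPM, 65 had a lower ratio.

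Mertk (ENSMUSG00000014361, chromosome 2, 128698956 to 128802894, plus strand) had 1900 counts in WT and 1752 in T403A. Levels were 127 CPM (121 to 132) and 87.9 CPM (83.8 to 92.1). The intervals did not overlap, but the fold of 1.44 (1.35 to 1.54) stayed under the 1.5-fold condition. Mertk was therefore lower in T403A beyond counting error and was not called.

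Tyro3 (ENSMUSG00000027298, chromosome 2, 119797733 to 119818104, plus strand), the TAM receptor known best from neurons, had 1 count in each library. That is below the 3 counts that a count of 0 allows (0.20 CPM in WT and 0.15 CPM in T403A), so no fold is given and no difference was detectable at this depth. The receptor side of the system in these cultures was in effect Axl and Mertk.

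Their order differed between the libraries. Per kilobase of gene length, Axl made up 59.8% of TAM receptor counts in WT and 37.5% in T403A, while Mertk made up 40.2% and 62.5%. Axl thus exceeded Mertk in WT, at 43.5 against 29.2 counts per kilobase and scaled library total (RPKM), and lay below it in T403A, at 12.2 against 20.3 RPKM. Without division by length, Axl took 63.4% of TAM receptor reads in WT (exact binomial interval 62.0 to 64.7) and 41.0% in T403A (39.3 to 42.8), so the order of the receptors did not depend on length. Such shares are taken within a library and do not depend on the scaling between libraries. They show unequal change of Axl and Mertk, not which of the genes moved.

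The members' sequences are distinct at the length of a short read. Over the annotated transcripts of the 10 members, none of the 45 pairs of genes shared a stretch of 25 bases. The exons of Axl and Mertk overlap those of no other annotated gene.

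The promoter of Axl is shown because STAT2 is the altered factor and Axl the measured member with the lowest ratio. The window runs from 250 bases before to 50 bases after the RefSeq start site (GRCm38.p6, chr7:25788684-25788983, minus strand, printed 5′ to 3′), with matches to the GC box GGGCGG on either strand in capitals.
Axl: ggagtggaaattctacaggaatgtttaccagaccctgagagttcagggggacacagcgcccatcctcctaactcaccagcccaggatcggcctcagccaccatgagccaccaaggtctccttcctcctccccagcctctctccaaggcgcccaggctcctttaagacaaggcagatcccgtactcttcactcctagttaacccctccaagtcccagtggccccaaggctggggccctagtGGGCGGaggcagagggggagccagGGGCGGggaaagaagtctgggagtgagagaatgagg
This window holds 2 GC boxes and no match to GAAANNGAAA, a core of the interferon-stimulated response element that STAT2 complexes bind, on either strand. Over the 32851 promoter windows of the RefSeq table, 3.44% held that motif, and no window of the 10 members did. The absence says only that these letters are not in these windows.

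**Figure D2:**
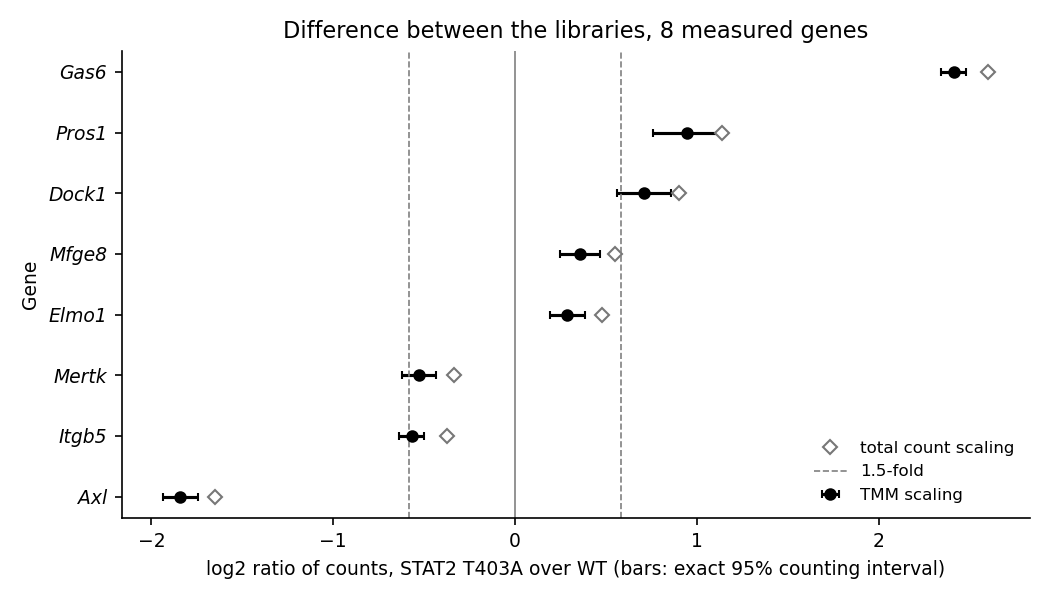
Log2 ratio of T403A over WT for the 8 measured genes with TMM scaling (black points, bars for the exact 95% counting interval) and with scaling by total count (open diamonds), with 1.5-fold as dashed lines. Gas6 lies at 2.41 and Axl at -1.84, and scaling by total count shifts every gene to the right by 0.19 without moving any across a dashed line.

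On the ligand side the largest difference was that of Gas6. Gas6 (ENSMUSG00000031451) lies on chromosome 8 at 13465374 to 13494490 on the minus strand and encodes a vitamin K-dependent protein that binds all TAM receptors. Its counts were 1969 in WT and 13927 in T403A. In CPM these are 131 (126 to 137) and 698 (687 to 710). The level was 5.32-fold higher in T403A (5.08 to 5.58). Of the measured genes, 158 had a higher ratio. Among the 337 that were at least as abundant by mean CPM, 0 did. The exons of Gas6 share 34 bases with those of Tmem255b on the opposite strand, but Tmem255b itself had 1 count in WT and 2 in T403A.

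Pros1 (ENSMUSG00000022912, chromosome 16, 62854307 to 62929346, plus strand) encodes protein S, which serves as an anticoagulant in blood and as a ligand of MERTK and TYRO3. It had 322 counts in WT and 825 in T403A. The levels were 21.5 CPM (19.2 to 23.9) and 41.4 CPM (38.6 to 44.3), a 1.93-fold difference (1.69 to 2.20). Both TAM ligand genes were thus higher in T403A, and Gas6 by more. In each library Gas6 was the main ligand transcript, with 90.7% of ligand counts per kilobase in WT and 96.4% in T403A. By reads the share of Gas6 was 85.9% in WT (84.5 to 87.3) and 94.4% in T403A (94.0 to 94.8), which are non-overlapping intervals.

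The promoters of both ligand genes are shown because these members were higher together. For Gas6 (chr8:13494486-13494785, minus strand) capitals mark GC boxes, here all read from the opposite strand as CCGCCC. For Pros1 (chr16:62854057-62854356, plus strand) they mark the 1 match to TTCNNNGAA, the form of the gamma-activated site that STAT dimers bind, which starts at position -92 from the start site.
Gas6: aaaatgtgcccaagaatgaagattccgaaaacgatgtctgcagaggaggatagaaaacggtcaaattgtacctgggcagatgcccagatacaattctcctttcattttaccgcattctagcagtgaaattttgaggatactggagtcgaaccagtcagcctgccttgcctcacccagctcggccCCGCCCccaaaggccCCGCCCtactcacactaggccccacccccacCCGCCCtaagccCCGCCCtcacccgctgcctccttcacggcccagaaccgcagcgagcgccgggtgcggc
Pros1: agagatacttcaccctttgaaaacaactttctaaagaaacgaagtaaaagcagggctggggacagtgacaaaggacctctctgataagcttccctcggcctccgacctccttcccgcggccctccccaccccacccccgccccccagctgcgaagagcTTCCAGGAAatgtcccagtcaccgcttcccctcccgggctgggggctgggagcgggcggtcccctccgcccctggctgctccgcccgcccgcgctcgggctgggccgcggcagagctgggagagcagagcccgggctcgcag
Gas6 has 4 GC boxes in this window and no match to TTCNNNGAA. That motif occurred in 8.3% of all windows and in the windows of 2 members, Pros1 and Elmo1. The GC box occurred in 35.7% of all windows and in at least 1 window of 9 members, Timd4 being the exception. Elmo1 has 2 windows. The upstream window held 3 GC boxes and 0 matches to TTCNNNGAA, and the downstream window 0 GC boxes and 2 matches to TTCNNNGAA. A direct repeat bound by liver X receptors, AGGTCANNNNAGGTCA, was in 5 of all windows and in none of the members'.

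**Figure D3:**
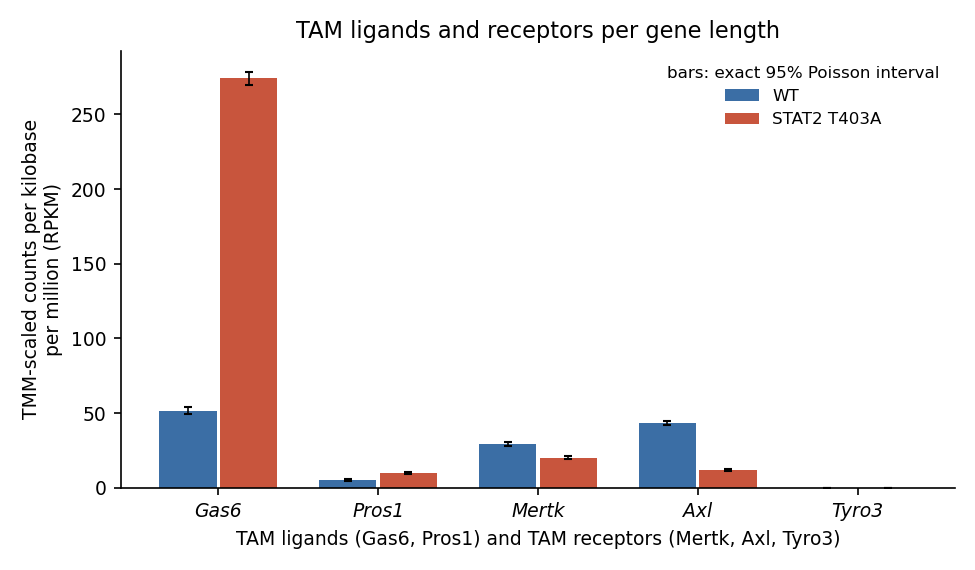
TMM-scaled counts per kilobase (RPKM) of the TAM ligand and receptor genes in the WT library (blue) and the T403A library (red), with exact 95% Poisson intervals. Gas6 stands at 51.5 and 274 RPKM, Axl stands at 43.5 and 12.2 RPKM, and Tyro3 is at the axis.

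The genes of the integrin bridge, Mfge8 and Itgb5, differed in opposite directions and neither was called. Mfge8 (ENSMUSG00000030605, chromosome 7, 79133768 to 79149060, minus strand) encodes the secreted protein that links phosphatidylserine to integrins αvβ3 and αvβ5. It had 1052 counts in WT and 1793 in T403A, or 70.1 CPM (66.0 to 74.5) and 89.9 CPM (85.8 to 94.2). The level was 1.28-fold higher in T403A (1.19 to 1.38), beyond counting error and under 1.5-fold.

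Itgb5 (ENSMUSG00000022817, chromosome 16, 33829665 to 33949338, plus strand), the β chain of integrin αvβ5, was abundant in both libraries. Its counts were 3571 in WT and 3203 in T403A, or 238 CPM (230 to 246) and 161 CPM (155 to 166). The fold of 1.48 (1.41 to 1.55) lower in T403A was just under the condition. Its partner chain Itgav was called lower, with 272 and 104 CPM (2.62-fold, 2.48 to 2.76). Itgb3, the other β chain that MFG-E8 is known to engage, had 15 counts in WT and 225 in T403A and was called higher (11.3-fold, 6.70 to 20.5). Even so, Itgb3 stood at 11.3 CPM in T403A.

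Timd4 (ENSMUSG00000055546, chromosome 11, 46810800 to 46844332, plus strand) encodes TIM-4, a direct phosphatidylserine receptor known from resident macrophages of several tissues. It had 9 counts in WT and 0 in T403A. In WT that is 0.60 CPM (0.27 to 1.14). Taken against 3 counts in T403A, the level was 3.99-fold lower, and the exact interval of the ratio runs from 2.62-fold lower upward. The summed count is under the minimum of 20, so Timd4 was not counted among the measured genes. Of the 6 other genes listed for resident macrophages, Gata6 and Clec4f were at 0 in both libraries, and Lyve1 had 1 count in each. Vsig4 had 4 and 16 counts and was not called (3.01-fold higher, 0.97 to 12.4). Folr2, on 9 and 28 counts, was called higher in T403A (2.34-fold, 1.07 to 5.64). Marco, a scavenger receptor gene, was abundant at 523 and 45.2 CPM, 11.6-fold lower in T403A.

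The engulfment genes Elmo1 and Dock1 were both on the higher side in T403A. Dock1 (ENSMUSG00000058325, chromosome 7, 134670654 to 135173639, plus strand) encodes the exchange factor that loads Rac with GTP. It had 547 counts in WT and 1189 in T403A, or 36.5 CPM (33.5 to 39.7) and 59.6 CPM (56.3 to 63.1). This was 1.64-fold higher (1.48 to 1.81), and the lower bound lies under 1.5-fold.

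Elmo1 (ENSMUSG00000041112, chromosome 13, 20090596 to 20608353, plus strand) encodes the adaptor that binds DOCK1. Its counts were 1439 in WT and 2336 in T403A, or 95.9 CPM (91.0 to 101) and 117 CPM (112 to 122). The fold of 1.22 (1.14 to 1.31) did not reach 1.5. An antisense gene overlaps 3.20% of its exon bases, and reads of the strands cannot be told apart because the strand setting is not given in the sources used here. Of the direct partners, Dock2, the main relative of DOCK1 in blood cells, was at 360 and 529 CPM (1.47-fold higher, 1.42 to 1.52). Dock5 was at 67.6 and 87.1 CPM and Elmo2 at 87.9 and 89.9 CPM. Rac1, Rhog and Crk were each slightly lower in T403A with TMM scaling, by 1.07-fold, 1.37-fold and 1.23-fold. The log2 ratio of Rac1 was -0.10 and became 0.09 with total count scaling, so its direction depended on the scaling. Exons of Daglb cover 51.4% of those of Rac1 on the opposite strand. None of these partners was called with TMM scaling. Dock2 was called higher with total count scaling (1.68-fold) and with upper-quartile scaling (1.54-fold).

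Ranked per kilobase, Itgb5 led in WT at 67.0 RPKM. Gas6, Axl, Mertk and Mfge8 followed at 51.5, 43.5, 29.2 and 14.9 RPKM. Elmo1, Pros1 and Dock1 were at 7.62, 5.25 and 3.91 RPKM, and Timd4 and Tyro3 at 0.28 and 0.011 RPKM. No neighbours in this order had overlapping intervals. In T403A the order began with Gas6 at 274 RPKM and Itgb5 at 45.2 RPKM. Mertk (20.3 RPKM) and Mfge8 (19.2 RPKM) came next, with overlapping intervals. Axl was at 12.2 RPKM. Pros1 (10.1 RPKM) and Elmo1 (9.31 RPKM) again overlapped, and Dock1 was at 6.39 RPKM. Gas6 moved up by 1 place, to the top, and Axl moved down from place 3 to place 5. Deposited lengths are the union of annotated exons, so exons outside a gene's main transcript lower its RPKM. The length was largest for Elmo1, at 12580 bases.

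**Figure D4:**
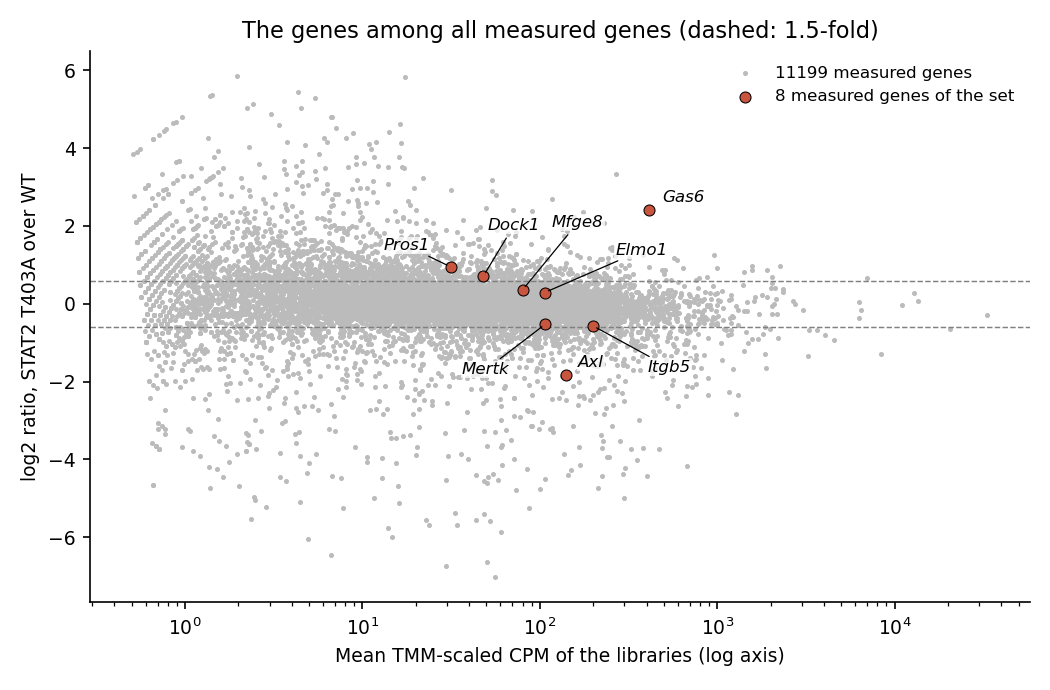
Log2 ratio of T403A over WT against mean TMM-scaled CPM (log axis) for the 11199 measured genes (grey) and the 8 measured genes of the set (red), with 1.5-fold as dashed lines. Gas6 sits above all 337 genes that are at least as abundant, and Axl lies in the lower tail, with 65 of 1506 such genes below it.

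All 10 macrophage markers were detected in both libraries, with Lyz2 at 36620 and 29804 CPM and Csf1r at 7146 and 5503 CPM. Fibroblast-like stromal cells are a known source of Gas6. The 12 stromal markers summed to 8.60 CPM in WT and 8.37 CPM in T403A, with Lum and Lepr at 0 in both. Whether such cells had a part in the Gas6 level was not tested. The 7 endothelial markers summed to 75.6 and 226 CPM, of which Vwf gave 61.0 and 222 CPM. Of the others, Cdh5 had 16 counts in WT and 0 in T403A, Emcn had 0 in both, and Kdr was at 10.8 and 3.51 CPM. Vwf was thus higher in the same library as Gas6 (3.64-fold), and its part in the result was not tested. The 9 markers of megakaryocytes and red cells summed to 38.7 and 8.07 CPM, mostly from Pf4 (507 and 94 counts). Monocyte markers were lower in T403A for 2 of 5 measured genes and higher for 0, and summed to 116 and 46.8 CPM.

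Enzymes that modify or cut the TAM proteins differed less than Gas6 and Axl. GAS6 and protein S need gamma-carboxylation, and Ggcx, the carboxylase gene, was at 11.3 and 13.4 CPM (1.19-fold higher, 0.97 to 1.45). Vkorc1, which recycles vitamin K for that reaction, had 0 counts in WT and 3 in T403A, and 47.7% of its exon bases are shared with another gene model on the same strand, so its level cannot be read here. The proteases ADAM10 and ADAM17 release the outer parts of AXL and MERTK. Adam10 was called lower, at 467 and 241 CPM (1.94-fold, 1.87 to 2.01), and Adam17 was at 823 and 666 CPM. Of 5 measured genes in this list 1 was lower and 0 were higher, with a median of -0.22, where 10.8% of all measured genes were lower.

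Genes of other bridging proteins were more often lower than higher in T403A. Of 10 measured genes 5 were called lower and 1 higher, where 10.8% of all measured genes were called lower and 13.5% higher. The list's median on the log2 scale was -0.61, against 0.01 over all measured genes. Thbs1 (thrombospondin-1) was at 560 and 27.0 CPM, 20.7-fold lower. C1qa, C1qb and C1qc, which encode chains of 1 protein, the complement opsonin C1q, were 3.27-fold, 2.03-fold and 1.83-fold lower. C3 was 3.14-fold lower. Lgals3 (galectin-3), which can also bind MERTK, was the gene called higher, at 1534 and 3013 CPM (1.96-fold).

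Among other receptors for phosphatidylserine, 2 of 8 measured genes were higher and 2 lower, with a median of 0.05. Over all measured genes 13.5% were higher and 10.8% lower. Stab1, the most abundant at 1810 and 2030 CPM, was not called, nor was Cd300lb at 335 and 321 CPM. Cd300lf was 6.49-fold lower and Scarf1 2.22-fold lower. Havcr2 (TIM-3) was 1.56-fold higher, and Stab2 was higher on 2 and 22 counts (8.28-fold, 2.03 to 72.6). In the list of phagocytic receptors and integrins 6 of 14 were lower and 3 higher, with a median of -0.53. The scavenger receptor gene Msr1 was 3.62-fold lower, Cd14 3.21-fold lower and Olr1, on 84 and 3 counts, 37.2-fold lower (12.3 to 184). Cd93 was 1.52-fold higher, and Lrp1, which partners calreticulin in uptake, was at 2056 and 2248 CPM and not called.

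Few genes of engulfment signalling and LC3-associated phagocytosis were called. Over all measured genes 24.4% were called in either direction, 13.5% higher and 10.8% lower. In the list of engulfment signalling, which does not hold Elmo1 and Dock1, 16 of 17 measured genes were not called, and the exception was the kinase gene Ptk2 (1.54-fold lower). That call was lost with total count scaling (1.35-fold) and with upper-quartile scaling (1.47-fold), where Dock2 and Trio were called higher instead. Rhoa and Rac2, the most abundant genes of that list, were at 525 and 446 CPM and at 492 and 441 CPM. The list median was -0.10, and 0.09 with total count scaling. In LC3-associated phagocytosis, a route by which engulfed corpses are degraded, 19 of 21 were not called. The oxidase genes Cybb (1.89-fold) and Ncf4 (1.82-fold) were lower, and Lamp1 was at 2074 and 1988 CPM. That median was -0.09, and 0.10 with total count scaling. Of 7 measured genes for inhibitory signals 1 was lower (Pilra, 6.75-fold), and Sirpa, the receptor for CD47, was at 2735 and 2722 CPM and Lilrb4a at 561 and 684 CPM. The median there was -0.21. Receptors for signals that attract phagocytes included 2 lower genes, Cx3cr1 (2.91-fold) and S1pr1 (1.70-fold, and 1.48-fold and not called with total count scaling), and 1 higher gene, P2ry12 (1.94-fold), of 7, with a median of -0.04 that was 0.15 with total count scaling. P2ry6, a receptor for nucleotides, was at 197 and 222 CPM and not called.

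Genes downstream of TAM receptors and factors linked to Mertk differed in parts. TAM signalling is known to induce SOCS genes through the interferon receptor. Of 13 measured genes in that list 6 were lower and 0 higher, with a median of -0.30, where 10.8% of all measured genes were lower and 13.5% higher. Socs1 was 3.25-fold lower on 71 and 29 counts, and Ifnar1 was 1.93-fold lower. The adaptor gene Grb2 was not called. Liver X receptors are known to raise Mertk. Of the pair, Nr1h3 was at 67.5 and 14.8 CPM, 4.55-fold lower (3.99 to 5.20), and Nr1h2 at 134 and 127 CPM. In the list of digestion and lipid handling 7 of 20 were lower and 3 higher, with a median of 0.02. Their targets Abca1 and Abcg1 went apart, Abca1 2.12-fold lower and Abcg1 1.69-fold higher. Npc2 was 1.61-fold lower (1.41-fold and not called with total count scaling), Ppard 1.55-fold higher and Lipa not called. Of 13 macrophage transcription factor genes 5 were lower, Stat2 (4.46-fold) and Nr4a1 (4.15-fold) by most, and 1 higher (Klf4, 1.68-fold), with a median of -0.44. Spi1 and Maf were not called.

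**Figure D5:**
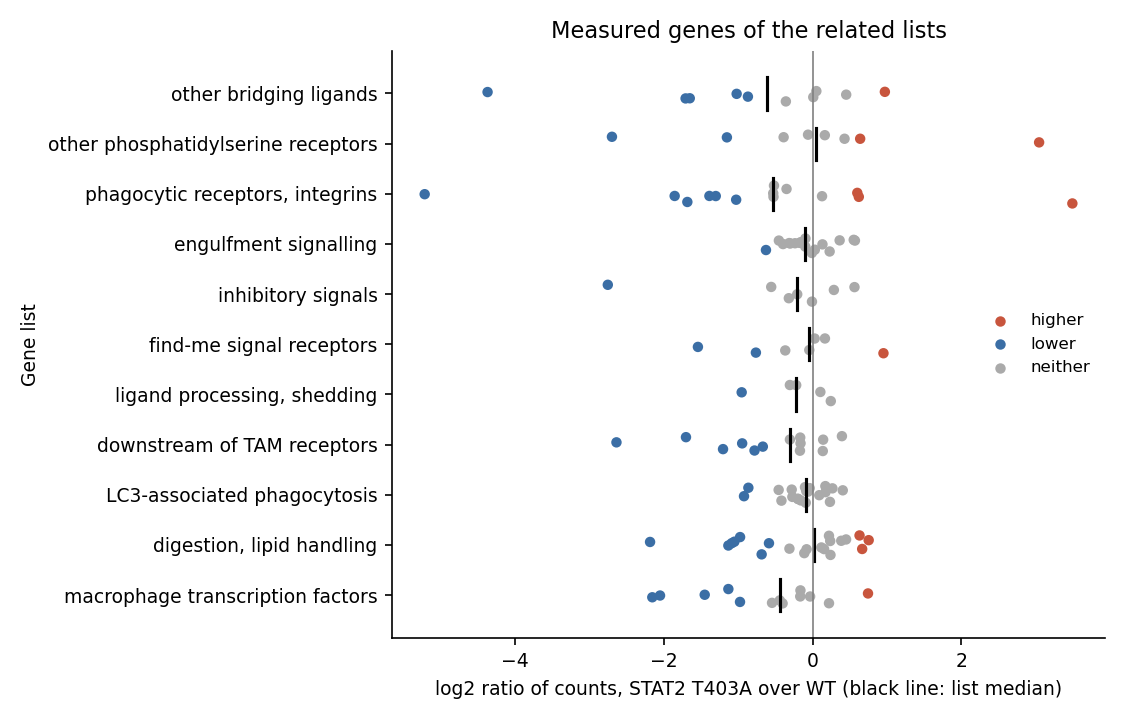
Log2 ratio of T403A over WT for the measured genes of the 11 related lists, 1 point per gene, coloured by call (red higher, blue lower, grey neither), with the list median as a black line. The medians run from -0.61 for other bridging ligands to 0.05 for other phosphatidylserine receptors, and points of engulfment signalling and LC3-associated phagocytosis cluster near 0.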

How the data were processed

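The authors deposited raw read counts for each Ensembl gene beside a gene length, per the file headers, and the library columns were matched by sample title. Build GRCm38 and the tools DESeq 1.30.0, HTSeq 0.9.1, HISAT2 and cutadapt 1.15 appear in the submitters' processing notes. Tool roles, annotation release and strand setting were not given in the sources used here. Symbols were found for 21969 of 22060 identifiers, and 96.8% of the deposited lengths (all 10 members) equalled the GENCODE M21 exon union. Promoters come from RefSeq (GRCm38.p6). Counts were scaled with TMM (edgeR 4.0.16, R 4.3.3), and ratios carry Clopper-Pearson intervals (scipy 1.17.1). The scoring was tested on simulated counts with counting error only, scaled by total count, which tests neither TMM scaling nor variation between cultures. The alternatives were total count scaling, DESeq2 1.42.0 size factors, upper-quartile scaling, other count minimums, a prior count of 2 and a 2-fold condition. The 11 related and 11 marker lists and the members were chosen with earlier results of these data known, so counts carry no set test. Genes named from each list are the 2 most abundant, direct partners of members, and 2 called in each direction. These last are the genes whose interval bound nearest to 1 lay farthest from it. Markers, Trio, C1qb and C1qc, beyond this rule, were chosen after their values were seen. Besides those for which the text says so, Adam17, Csf1r, Cx3cr1, Dock2, Folr2, Gata6, Itgav, Lamp1, Lilrb4a, Maf, P2ry12, Pilra, Rac1, Rhoa, Stab1, Stab2 and Thbs1 overlap a gene on the opposite strand, and Nr1h3 and again Lilrb4a one on the same strand. A gene of the lists that the rule picks is not reported here. DESeq2 and edgeR tests were not run, since 1 library per group leaves no residual degrees of freedom.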

Additional observations from a re-analysis of the deposited data

How the results depend on the processing

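No member changed its call under total count, DESeq2 or upper-quartile scaling or with a prior count of 2. Total count scaling took the median over all genes from 0.01 to 0.20 (log2). The log2 ratios of the members then were 2.60 (Gas6), 1.14 (Pros1), 0.90 (Dock1), 0.55 (Mfge8), 0.48 (Elmo1), -0.34 (Mertk), -0.38 (Itgb5) and -1.65 (Axl), and with upper-quartile scaling 2.48 (Gas6) and -0.50 (Itgb5). At 2-fold, 1 member was higher (Gas6) and 1 lower (Axl), against 7.21% and 6.08% of all genes (808 and 681). With no count filter 2 members were lower, as Timd4 then entered. Over all genes, total count scaling called 2290 higher in place of 1515. Without division by length, Mertk made up 36.6% of TAM receptor counts in WT and 58.9% in T403A, Axl 63.4% and 41.0%, and ligands per receptor were 0.44 and 4.96.

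With total count scaling the list medians were -0.42 (other bridging ligands), 0.24 (other phosphatidylserine receptors), -0.33 (phagocytic receptors and integrins), 0.094 (engulfment signalling), -0.014 (inhibitory signals), 0.15 (receptors for attracting signals), -0.028 (ligand processing), -0.11 (downstream of TAM receptors), 0.10 (LC3-associated phagocytosis), 0.21 (digestion and lipid handling) and -0.25 (transcription factors), so that engulfment, attracting signals and LC3 changed sign. The second list had a median of -0.060 and 1 higher gene over genes with at least 100 counts, and ligand processing a median of -0.057 with no filter. Counts of higher genes with total count scaling were 2 for bridging ligands, 2 for engulfment (also 2 with upper-quartile scaling), 1 for inhibitory signals (also 1 with upper-quartile scaling), 1 downstream of TAM receptors and 1 for LC3. Counts of lower genes were 0 for engulfment (also 0 with upper-quartile scaling) and 1 for attracting signals. At 2-fold the higher counts were 0 for bridging ligands, attracting signals, digestion and transcription factors, and 1 for phosphatidylserine receptors and phagocytic receptors. The lower counts at 2-fold were 0 for engulfment, ligand processing and LC3, 1 for attracting signals, 3 downstream of TAM receptors and 4 for digestion.

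No paired analysis was possible because each group is 1 library, and leaving out a library leaves nothing to compare. The intervals hold no variation between animals, cultures or preparations. Depth limits Tyro3 and Timd4, which rest on 2 and 9 summed counts.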

Other observations

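Within a library, the ratio of one gene to another does not depend on the scaling between libraries. The following ratios were chosen after the values were seen. TAM ligand counts per TAM receptor count, both per kilobase, were 0.78 in WT and 8.77 in T403A, an 11.2-fold difference to which the higher Gas6 and the lower Axl both add. Gas6 to Axl was 1.18 in WT and 22.5 in T403A, and Gas6 to Mertk 1.76 and 13.5. The balance of the ligands, Gas6 to Pros1, was 9.81 and 27.1.

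The other pairs that act together moved less. Mfge8 to Itgb5 per kilobase was 0.22 in WT and 0.42 in T403A, a 1.90-fold difference, although neither gene met the 1.5-fold condition alone. Elmo1 to Dock1 was 1.95 and 1.46, a 1.34-fold difference.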
